A study of Mus musculus with 12 samples.

Results

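GZF1 binds DNA through zinc fingers, and 6 genes were examined at which its chromatin immunoprecipitation signal had been picked out as low in cells without Gzf1: Cald1, Pdzrn3, Ntn4, Col13a1, Prokr2 and Nfib. Each gene was taken with 5 kb on each side, which gave 948 of the 2725549 bins of 1 kb in the deposited table, and its peak bin was the bin with the highest anti-FLAG signal in the Cas9 line. The genes were chosen by a low ratio of knockout to control reads in a bin with GZF1 signal, so the anti-FLAG values of the Cas9 line and the knockout to control ratios describe how they were picked and support nothing. At the peak bin the knockout was lower than the control at 5 genes. Nfib went against its description as a lost site, with a knockout density of 1.22 and a control density of 1.17.

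All libraries came from mouse embryonic stem cells fixed with formaldehyde, their chromatin cut with micrococcal nuclease. Gzf1-Flag cells, which express tagged GZF1 ectopically, were precipitated with anti-FLAG in RGM, a 129xCAST line (clone 56), and in the Cas9-GFP line (clone 35). RGM and Cas9-GFP wild-type cells were precipitated with anti-GZF1, which reads the endogenous protein. The Gzf1 knockout and its control, both Cas9-GFP, were also precipitated with anti-GZF1, and the same line gave an H3K27ac library, from wild-type cells, and an input without antibody. H3K27ac is a histone mark of active promoters and enhancers. Each group was a single library, so no test between conditions was possible. The labels used here do not say whether the knockout is 1 clone or what the control cells received. The 8 libraries held 10.1 M (input) to 94.2 M (control) reads, or 3.93 to 35.8 reads per autosomal bin on average. Over Gzf1 itself (mm10 chromosome 2, 148679384 to 148692949) the density was 0.688 in the knockout and 0.903 in the control, a ratio of 0.762 (0.658 to 0.881). Bins of 1 kb cannot show a small edit. At the annotated starts of 6 stem cell marker genes H3K27ac density was 1.42 to 4.19, against 1.21 to 1.44 at 3 fibroblast marker genes. The other fibroblast genes of the list were not found in the annotation used. Relative to the median of the bins up to 10 kb away the sets overlapped, at 0.933 to 2.43 times and 1.23 to 1.44 times.

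GZF1 was described as a protein induced by GDNF, a growth factor that signals through the RET receptor in kidney and nerve development. Its BTB domain mediates contacts between proteins and its zinc fingers read DNA. The 6 genes have different jobs. Cald1 encodes caldesmon, an actin-binding regulator of contraction, and Pdzrn3 a ubiquitin ligase with PDZ domains. Ntn4 encodes netrin-4, a secreted protein of basement membranes, and Col13a1 a collagen anchored in the cell membrane. Prokr2 encodes a receptor for prokineticins, needed for the olfactory bulb and for reproductive neurons, and Nfib a transcription factor of the nuclear factor I family that acts in lung and brain development.

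The peak bins of 4 genes held an annotated gene start or lay beside one, and their promoter sequences are shown because the signal falls on or next to them. They come from RefSeq (GRCm38.p6), run 5′ to 3′ along the strand of the gene from 250 bases before the start to 50 after it, and capitals mark CpG dinucleotides, the sites of DNA methylation.
Cald1 inner promoter, chr6:34709194-34709493, plus strand: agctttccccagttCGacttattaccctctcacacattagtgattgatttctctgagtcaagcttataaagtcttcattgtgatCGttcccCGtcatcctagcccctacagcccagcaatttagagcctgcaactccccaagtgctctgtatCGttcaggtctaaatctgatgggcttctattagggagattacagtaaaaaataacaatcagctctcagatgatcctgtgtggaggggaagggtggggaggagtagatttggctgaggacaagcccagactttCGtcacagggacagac
Pdzrn3 promoter, chr6:101377848-101378147, minus strand: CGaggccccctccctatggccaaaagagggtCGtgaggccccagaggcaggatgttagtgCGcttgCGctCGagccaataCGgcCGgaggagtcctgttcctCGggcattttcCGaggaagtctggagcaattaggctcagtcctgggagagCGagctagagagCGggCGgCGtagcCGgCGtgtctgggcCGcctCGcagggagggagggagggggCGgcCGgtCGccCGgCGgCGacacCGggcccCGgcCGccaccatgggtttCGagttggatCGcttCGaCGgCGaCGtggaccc
Col13a1 promoter, chr10:61979059-61979358, minus strand: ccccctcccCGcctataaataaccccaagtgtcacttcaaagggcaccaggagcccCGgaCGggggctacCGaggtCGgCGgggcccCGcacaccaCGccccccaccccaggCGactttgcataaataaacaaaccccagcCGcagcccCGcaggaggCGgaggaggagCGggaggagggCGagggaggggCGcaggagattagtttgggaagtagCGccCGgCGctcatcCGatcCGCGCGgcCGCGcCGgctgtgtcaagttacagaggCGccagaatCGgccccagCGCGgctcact
Prokr2 promoter, chr2:132385398-132385697, minus strand: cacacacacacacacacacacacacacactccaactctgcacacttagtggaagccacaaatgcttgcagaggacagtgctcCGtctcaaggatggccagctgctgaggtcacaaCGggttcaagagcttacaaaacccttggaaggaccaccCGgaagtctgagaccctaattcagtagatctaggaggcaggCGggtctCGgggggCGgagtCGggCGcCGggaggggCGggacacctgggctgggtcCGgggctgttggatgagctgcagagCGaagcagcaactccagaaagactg
The Cald1 inner promoter had 5 CpGs, Prokr2 had 12, Col13a1 had 29 and Pdzrn3 had 32, against a median of 7 over 32851 promoters. The promoters at the sites with most signal, Cald1 and Pdzrn3, thus lay at opposite ends among the 4. All 300 bases of the Cald1 and Prokr2 promoters and 147 bases of the Pdzrn3 promoter were inside the peak bin. The Col13a1 promoter was outside it, with the start 108 bp beyond its edge. The letters TGCGC, the start of the binding consensus reported for GZF1, were searched on both strands and occurred 2 times in the Pdzrn3 promoter, 1 time in that of Col13a1 and 0 times in those of Cald1 and Prokr2, and 30.4% of all promoters held them. Each copy contains a CpG. A match, or its absence in these 300 bases, is a description of the letters and says nothing about binding.

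Values below are read densities, reads in a bin divided by the mean over 2462755 autosomal bins in that library. Counts carry 95% exact Poisson intervals and ratios of counts carry exact binomial (Clopper-Pearson) ones, which leave out every error but counting, and reads may share a molecule. Local background is the median density of bins up to 10 kb away on either side. As a background for the 6 peak bins, 9935 autosomal bins (0.403%) with a Cas9 anti-FLAG density of 2 or more and 2 or more times local background were used, a set that holds all 6 and was chosen after the data were seen.

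Cald1 had the lowest knockout to control ratio of the 6 and, with Pdzrn3, the strongest anti-FLAG signal. The peak bin (mm10 chromosome 6, 34709001 to 34710000) lies inside the gene (34598495 to 34775469) and holds the second annotated start of Cald1 at 34709444. It had 445 reads with anti-FLAG in RGM and 518 reads in Cas9, densities of 16.8 (15.3 to 18.4) and 19.0 (17.4 to 20.8). Among autosomal bins, 22 had a higher Cas9 anti-FLAG density and 815 a higher Cas9 anti-FLAG fold over local background. Anti-GZF1 in wild-type cells had 83.2 reads in RGM and 193 in Cas9, densities of 9.66 (7.70 to 11.98) and 8.19 (7.08 to 9.43). The bin was thus the highest of the 188 bins of the gene in each of these 4 libraries. The knockout had 25.4 reads, a density of 0.771 (0.501 to 1.14), and the control 123 reads, a density of 3.43 (2.85 to 4.09). The control bin was also the highest of the window, at 2.38 times local background, whereas the knockout bin ranked 180 of 188 at 0.661 (0.429 to 0.973) times its local background. The knockout therefore had a dip where the control had a peak. H3K27ac density was 2.58 (1.85 to 3.50) and the input had 6.75 reads, a density of 1.72 (0.677 to 3.59). The outer start of Cald1, 111 kb away, had anti-FLAG densities of 2.70 in RGM and 2.11 in Cas9, and a knockout to control ratio of 0.867 (0.587 to 1.27). Of the annotated starts of the gene, the inner one thus had the higher signal. Another bin of the window, 71 kb from the peak (34780001 to 34781000), had anti-FLAG densities of 5.32 in RGM and 3.31 in Cas9 and wild-type anti-GZF1 densities of 7.32 in RGM and 4.02 in Cas9. Its input was also high, at 3.17 times local background, and its knockout to control ratio was 1.06 (0.747 to 1.49).

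Pdzrn3 had the highest fold over its surroundings. Its peak bin (chromosome 6, 101378001 to 101379000) begins 104 bp outside the end of the gene (101149607 to 101377897) that holds its start. It had 486 anti-FLAG reads in RGM and 508 in Cas9, densities of 18.3 (16.8 to 20.1) and 18.7 (17.1 to 20.4), which were 11.1 and 13.5 times local background. Wild-type anti-GZF1 had 117 reads in RGM and 199 in Cas9, densities of 13.6 (11.2 to 16.2) and 8.45 (7.31 to 9.70). Both antibodies thus placed the top of the 239 bins here in both lines. The knockout had 35.5 reads, a density of 1.08 (0.753 to 1.496), and the control 83.8 reads, a density of 2.34 (1.87 to 2.90). The knockout stood at 1.20 times its local background and the control at 2.05 times. The neighbouring bin, which holds the start at 101377897, had densities of 10.4 and 7.32 with anti-FLAG in RGM and Cas9, with 25.6 knockout and 54.7 control reads, so signal and a low ratio spanned the start. Low ratios were not confined to the site: of 237 bins with 20 or more control reads 14 had a lower ratio than the peak bin. The lowest, 0.334 (0.177 to 0.617), was 77 kb away, where anti-FLAG densities were 0.835 in RGM and 0.551 in Cas9. H3K27ac density in the peak bin was 2.70 (1.95 to 3.63), second in the window, and the input had 5 reads, a density of 1.27 (0.414 to 2.97).

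**Figure D1:**
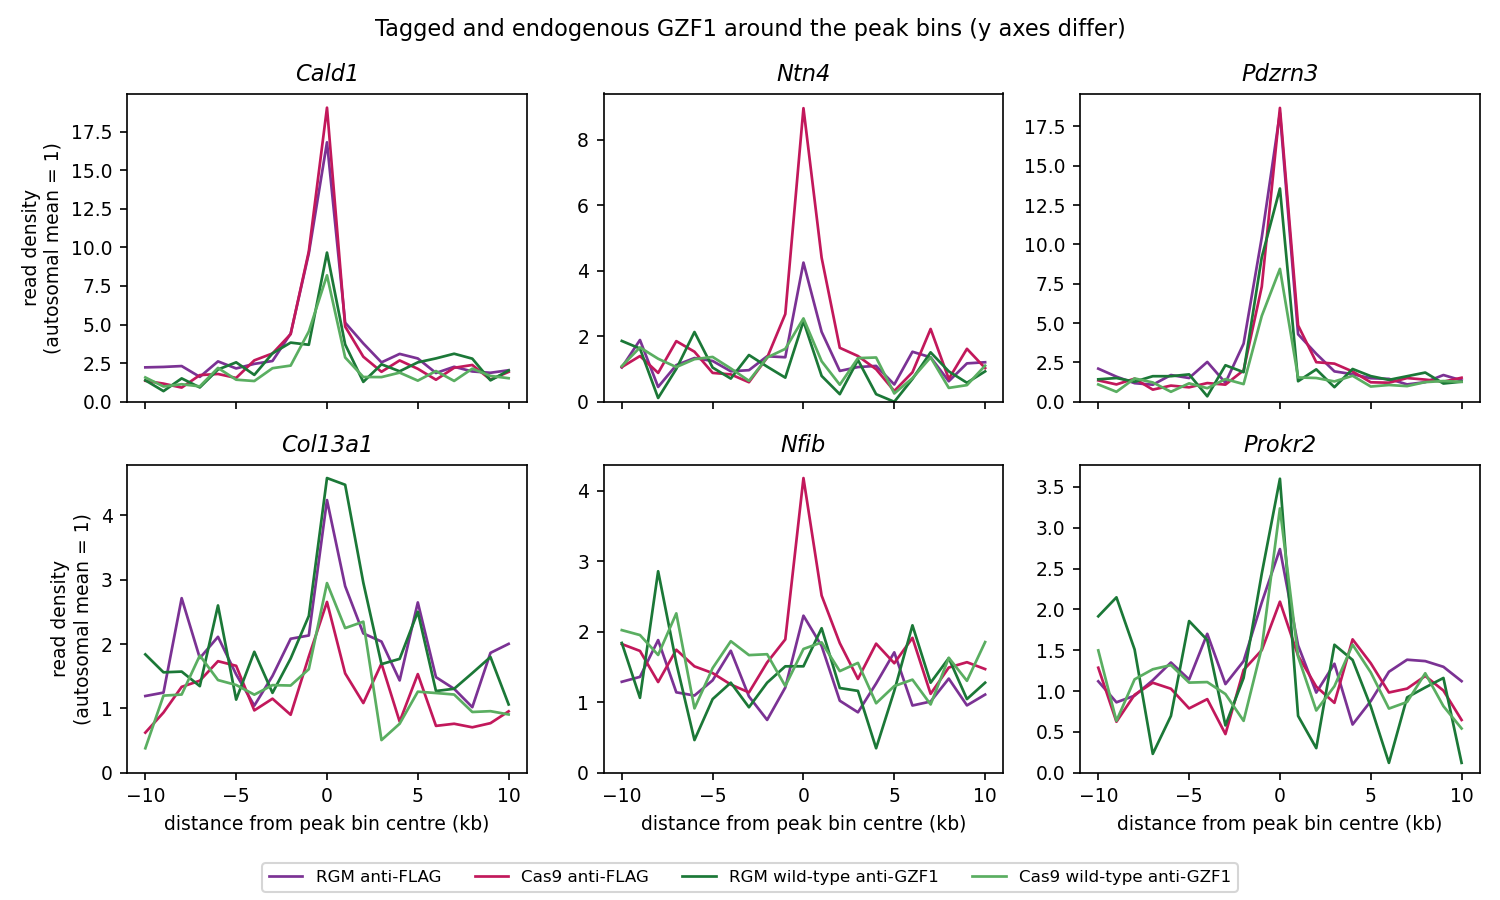
Read density (autosomal mean 1) against distance from the peak bin centre in kb, for anti-FLAG and wild-type anti-GZF1 in RGM and Cas9, 1 line per library. The 4 lines share sharp peaks at Cald1 and Pdzrn3, Ntn4 is highest with Cas9 anti-FLAG (8.97), and at Nfib the Cas9 anti-FLAG line (4.18) is above the RGM anti-FLAG line (2.23).

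Ntn4 carried its site inside the gene, away from its own annotated start. Its peak bin (chromosome 10, 93688001 to 93689000) lies inside the gene (93641049 to 93745972), 46952 bp from the annotated start. Anti-FLAG had 113 reads in RGM and 244 in Cas9, densities of 4.25 (3.50 to 5.11) and 8.97 (7.88 to 10.2). The RGM signal was 0.474 (0.377 to 0.597) times that of Cas9, although the bin was the highest of the 115 bins in both. Wild-type anti-GZF1 had 21.2 reads in RGM and 60.1 in Cas9, densities of 2.46 (1.53 to 3.76) and 2.55 (1.94 to 3.28), so endogenous signal did not differ between the lines beyond counting error (ratio 0.967, 0.554 to 1.60). The knockout had 18.5 reads, a density of 0.562 (0.336 to 0.882), and the control 60.3 reads, a density of 1.69 (1.29 to 2.17). These were 0.646 and 1.74 times local background. The knockout bin ranked 112 of 115 and the control bin was second. H3K27ac had 13 reads, a density of 0.819 (0.436 to 1.40), and the input had 2 reads, so this site had no H3K27ac above its surroundings (0.965 times). The bin of the annotated start behaved differently: wild-type anti-GZF1 density was 5.33 in RGM and 3.56 in Cas9 and H3K27ac 2.79, but the knockout to control ratio was 1.27 (0.747 to 2.23).

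Col13a1 had a weaker site at its start. Its peak bin (chromosome 10, 61978001 to 61979000), inside the gene (61838234 to 61979206), had 112 anti-FLAG reads in RGM and 72.3 in Cas9, densities of 4.24 (3.49 to 5.10) and 2.66 (2.08 to 3.34). The RGM density was 1.60 (1.18 to 2.18) times that of Cas9, but so was that of the bins at 2 to 10 kb, at 1.58 (1.41 to 1.76) times, and the fold over local background was 2.32 in RGM and 2.58 in Cas9. Wild-type anti-GZF1 had 39.5 reads in RGM and 69.6 in Cas9, densities of 4.58 (3.26 to 6.25) and 2.95 (2.30 to 3.73), and H3K27ac had 48 reads, a density of 3.02 (2.23 to 4.01), the top of the window. The knockout had 24.1 reads, a density of 0.730 (0.468 to 1.09), and the control 52 reads, a density of 1.45 (1.09 to 1.91). The low ratio did not reach the neighbouring bin. In the bin with the start the ratio was 1.16 (0.755 to 1.78), from 47.9 knockout and 44.7 control reads, and over the 3 kb around the peak the ratio was 0.888 (0.690 to 1.14). Elsewhere in the gene 3 bins had lower ratios than the peak bin, of 0.458, 0.487 and 0.495.

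Prokr2 was also marked at its start, within the peak bin (chromosome 2, 132385001 to 132386000) at the end of the gene (132369705 to 132385502). It had 72.5 anti-FLAG reads in RGM and 57 in Cas9, densities of 2.74 (2.15 to 3.45) and 2.10 (1.59 to 2.71), the lowest Cas9 anti-FLAG value of the 6. Wild-type anti-GZF1 was stronger than the tagged signal in the Cas9 line, with 31 reads in RGM and 76.4 in Cas9, densities of 3.60 (2.45 to 5.11) and 3.24 (2.55 to 4.05), and the Cas9 anti-FLAG density was 0.647 (0.453 to 0.929) times the wild-type one. H3K27ac density was 2.86 (2.09 to 3.82). The knockout had 25.8 reads, a density of 0.782 (0.510 to 1.15), and the control 52.1 reads, a density of 1.46 (1.09 to 1.91). The low ratio extended beyond the site here: the surrounding 1 Mb had a knockout to control ratio of 0.720 (0.708 to 0.732), and relative to it the ratio of the bin was 0.747 with an interval that held 1 (0.452 to 1.23). Of 25 bins of the window with 20 or more control reads 6 had a lower ratio than the peak bin, the lowest 0.301 (0.155 to 0.559).

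Nfib was not lower in the knockout at its peak bin, where the control had no detectable signal to lose. That bin (chromosome 4, 82352001 to 82353000), inside the gene (82290173 to 82506751), had 59.0 anti-FLAG reads in RGM and 114 in Cas9, densities of 2.23 (1.70 to 2.87) and 4.18 (3.45 to 5.02). Wild-type anti-GZF1 had 13 reads in RGM and 41.4 in Cas9, densities of 1.51 (0.804 to 2.58) and 1.76 (1.26 to 2.38), at 1.18 and 1.10 times local background, so endogenous signal above the surroundings was not detectable there at this depth. The knockout had 40.2 reads, a density of 1.22 (0.873 to 1.66), and the control 41.9 reads, a density of 1.17 (0.844 to 1.58). These were 1.13 (0.810 to 1.54) and 0.857 (0.618 to 1.16) times local background, so neither retention nor loss can be read there. Of 227 bins with 20 or more control reads 185 had a lower ratio. The lowest ratio of the gene, 0.268 (0.121 to 0.509) from 11.4 knockout and 46.0 control reads, was 24 kb away (82328001 to 82329000), where anti-FLAG densities were 0.924 in RGM and 1.99 in Cas9. The RGM anti-FLAG maximum of Nfib was in another bin (82505001 to 82506000), by the end of the gene with the higher coordinate, at 2.08 times local background. Which end holds the start was not given in the annotation used. There wild-type anti-GZF1 was at 2.67 times local background in RGM and 1.996 times in Cas9, and the knockout to control ratio was 1.05 (0.633 to 1.75).

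**Figure D2:**
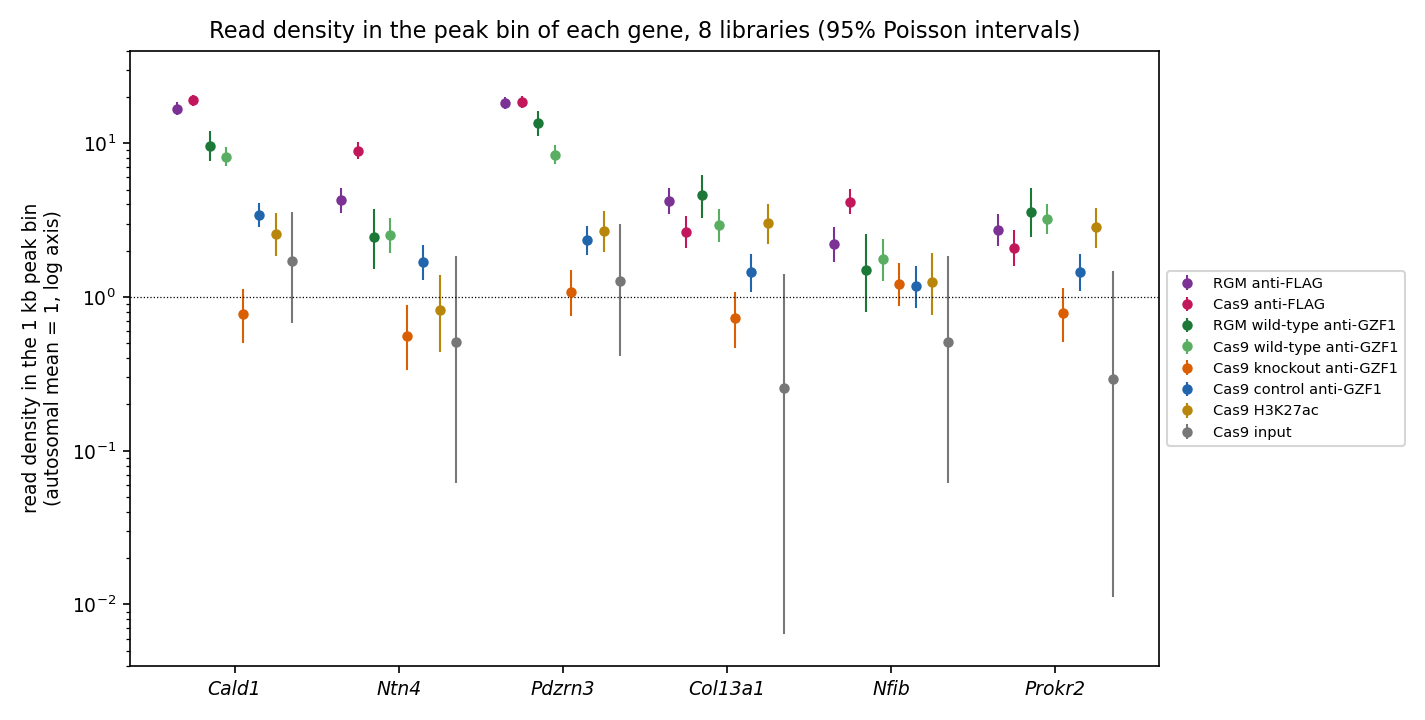
Read density in the peak bin of each gene (log axis, autosomal mean 1) in the 8 libraries, 1 point per library with its 95% Poisson interval. The knockout lies below the control at 5 genes and at 1.22 against 1.17 at Nfib, and the wild-type anti-GZF1 points stand above both at Cald1 and Pdzrn3.

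The knockout to control ratio, by which the genes were picked, was 0.225 (0.138 to 0.341) at Cald1, 0.333 (0.181 to 0.559) at Ntn4 and 0.460 (0.306 to 0.696) at Pdzrn3. It was 0.502 (0.296 to 0.828) at Col13a1, 0.537 (0.326 to 0.886) at Prokr2 and 1.04 (0.654 to 1.63) at Nfib. The interval was below 1 at 5 of 6 genes, beside 7.52% of 9905 bins of the background set with 20 or more control reads. Nothing is read from this share, since the ratio chose the genes. Relative to the surrounding 1 Mb the ratio was 0.264 (0.161 to 0.401) at Cald1, 0.337 (0.183 to 0.565) at Ntn4, 0.569 (0.378 to 0.860) at Pdzrn3 and 0.485 (0.285 to 0.799) at Col13a1. At Cald1, Pdzrn3, Nfib and Prokr2 the surrounding 1 Mb itself was lower in the knockout, with ratios of 0.852, 0.809, 0.809 and 0.720, and its part in the result beyond this division was not tested. Around Ntn4 and Col13a1 it was 0.990 and 1.04. Over the 3 kb around the peak the interval was below 1 at 4 genes: Cald1 at 0.483 (0.377 to 0.608), Ntn4 at 0.496 (0.359 to 0.681), Pdzrn3 at 0.540 (0.414 to 0.700) and Prokr2 at 0.555 (0.403 to 0.749).

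**Figure D3:**
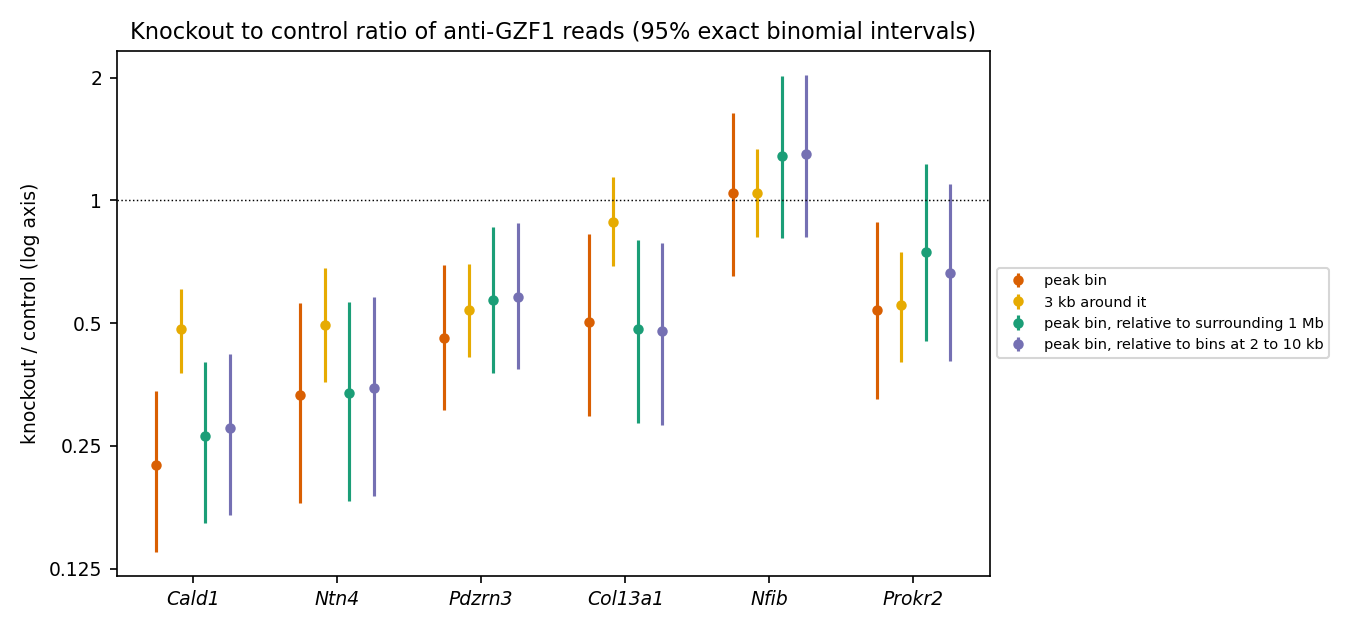
Knockout to control ratio of anti-GZF1 reads (log axis) for each gene in the peak bin, over 3 kb, and in the peak bin relative to the surrounding 1 Mb or to the bins at 2 to 10 kb, with 95% exact binomial intervals. All 4 intervals lie below 1 at Cald1, Ntn4 and Pdzrn3, while that of Col13a1 over 3 kb, both relative values of Prokr2 and all values of Nfib hold 1.

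The bins beside the peak are given as a description, since knockout and control reads chose the genes. At Cald1 the bin before the peak had 43.4 knockout and 52.1 control reads and the bin after it 34.6 and 58.1. At Ntn4 the bin before the peak had a ratio of 0.494 (0.257 to 0.921), from 16 knockout and 35.2 control reads, and the bin after it had 24.5 and 33.8 reads. Anti-FLAG signal above local background was narrow: the peak bin held 51.8% and 55.3% of the excess over 5 kb at Cald1 in RGM and Cas9, 52.9% and 60.8% at Pdzrn3 and 68.2% and 59.6% at Ntn4. The remainder leaned towards lower coordinates at Cald1 and Pdzrn3, with 25.05% and 20.9% in the bin before the peak against 9.21% and 12.2% in the bin after it in Cas9. The same lean was seen at both genes in RGM anti-FLAG and in Cas9 wild-type anti-GZF1. In RGM wild-type anti-GZF1 it was seen at Pdzrn3 but not at Cald1, with 12.1% before and 12.3% after. At Ntn4 Cas9 anti-FLAG had 11.3% before and 24.5% after. Anti-GZF1 in Cas9 wild-type cells had 21.5% before and 3.28% after, so no lean was shared by the antibodies there.

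**Figure D4:**
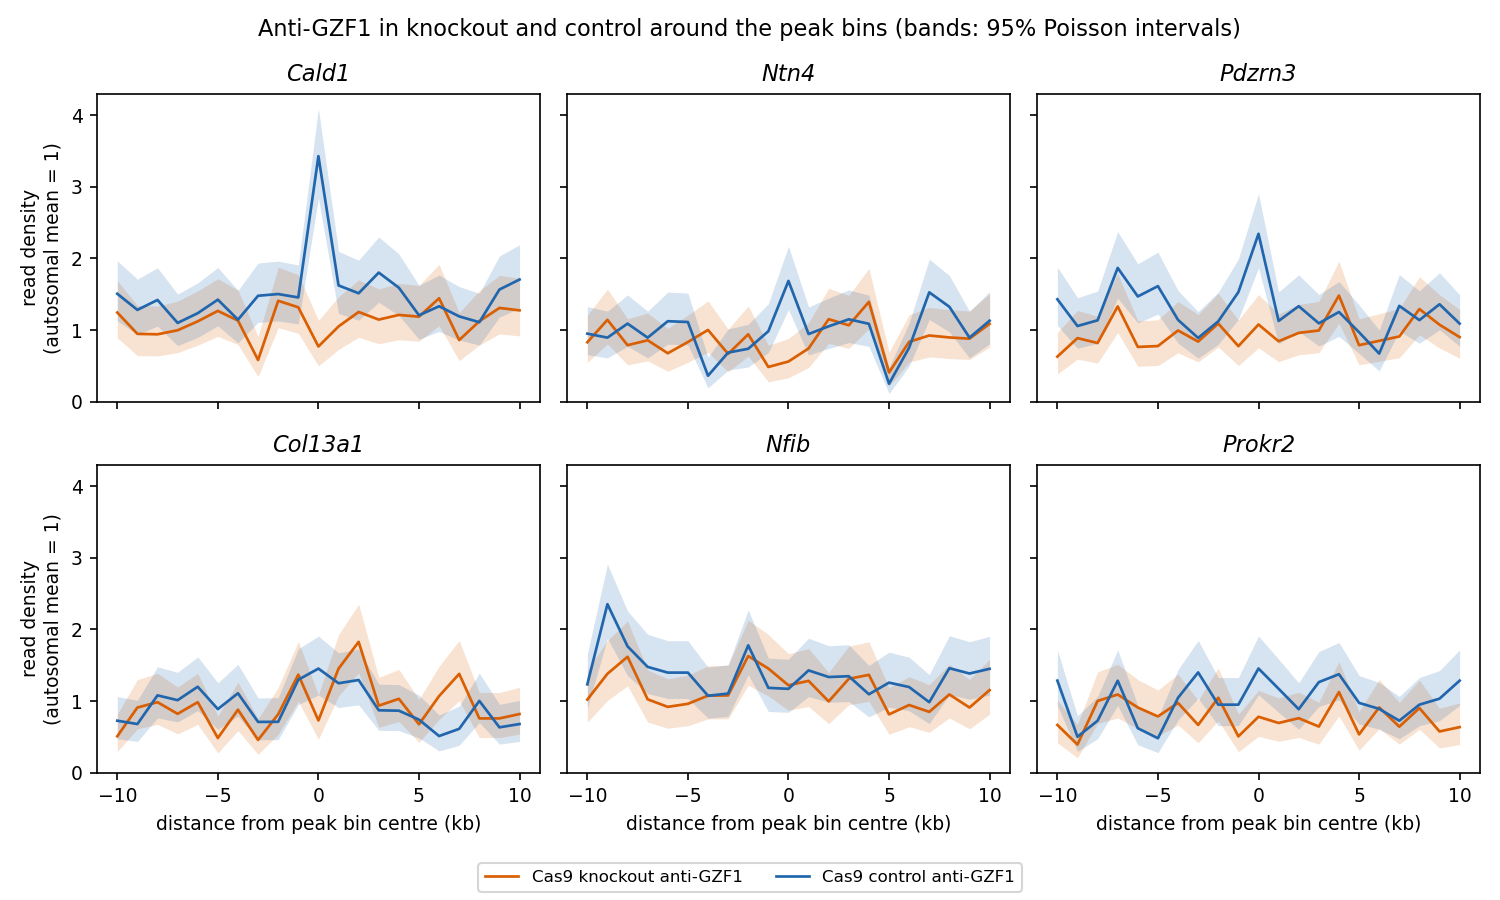
Anti-GZF1 read density (autosomal mean 1) in knockout and control against distance from the peak bin centre in kb, with 95% Poisson intervals as bands. At distance 0 the knockout has 0.771 at Cald1, 1.08 at Pdzrn3 and 0.562 at Ntn4, where the control peaks at 3.43, 2.34 and 1.69, and at Nfib the bands overlap there.

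The libraries that played no part in the choice were then read at the same bins. RGM anti-FLAG was at 2 or more times local background at 5 of 6 peak bins, beside 67.7% of the 9935 background bins, with Nfib at 1.90 times. Wild-type anti-GZF1 reached this level at 5 of 6 in RGM, beside 75.6%, and at 5 of 6 in Cas9, beside 66.4%. These shares are near the background, and nothing particular to the 6 genes is read from them. H3K27ac reached it at 3 of 6 (Pdzrn3, Col13a1 and Prokr2), beside 55.3%, with Cald1 at 1.98 times. The input, with 1 to 6.75 reads per bin, reached it at 0 of 6, beside 46.8%. The highest bin of the window was the same in RGM anti-FLAG for 5 of 6 genes, against 45.1% of 14371 autosomal genes with windows of 27 to 239 bins. It was the same in RGM wild-type anti-GZF1 for 3 genes (42.1%), in Cas9 wild-type anti-GZF1 for 4 (45.1%) and in H3K27ac for 2 (39.4%). Only 3.27% of the 14371 genes had a bin with a Cas9 anti-FLAG density of 3 or more and 3 or more times local background. The 6 genes were chosen for a bin with GZF1 signal, so nothing is read from these counts.

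Wild-type cells had more anti-GZF1 signal than the control at the same sites. The ratio of Cas9 wild type to control was 2.39 (1.89 to 3.01) at Cald1, 3.61 (2.77 to 4.69) at Pdzrn3, 2.22 (1.54 to 3.22) at Prokr2, 2.03 (1.41 to 2.98) at Col13a1, 1.51 (1.04 to 2.21) at Ntn4 and 1.499 (0.939 to 2.33) at Nfib. An interval above 1 was found at 5 of 6, beside 72.6% of background bins, so a control below wild type was common to tagged sites. In the bins at 2 to 10 kb this ratio was 0.956 to 1.40. The labels do not say how the control and the wild type of this line differ, and what sets them apart was not tested. Against the wild type, the knockout had 0.0942 (0.0586 to 0.141) times the density at Cald1 and 0.128 (0.0882 to 0.185) times at Pdzrn3. At Ntn4, Prokr2 and Col13a1 it had 0.221, 0.242 and 0.248 times, and at Nfib 0.695 (0.440 to 1.11) times. The interval was below 1 at 5 of 6 genes, beside 71.4% of background bins. Knockout reads took part in the choice of the genes, and the control was itself below the wild type. Nothing is therefore read from this count.

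Between lines, tagged density was lower in RGM at Ntn4 and at Nfib (0.533, 0.382 to 0.735) and higher at Col13a1. In the bins at 2 to 10 kb the same ratio was 0.938 (0.833 to 1.06) at Ntn4, 0.793 (0.711 to 0.885) at Nfib and, as above, 1.58 at Col13a1, where the surroundings were thus as high in RGM as the site. Intervals held 1 at Cald1 (0.776 to 1.004), Pdzrn3 (0.866 to 1.12) and Prokr2 (0.918 to 1.90). The bins at 2 to 10 kb were higher in RGM at each of these genes. The ratio there was 1.19 (1.09 to 1.29) at Cald1, 1.22 (1.10 to 1.35) at Pdzrn3 and 1.15 at Prokr2. Only that of Prokr2 lay within the interval of its site. Anti-FLAG fold over local background was 7.05 (6.41 to 7.73) in RGM and 9.34 (8.55 to 10.2) in Cas9 at Cald1. It was 11.1 (10.2 to 12.2) and 13.5 (12.3 to 14.7) at Pdzrn3, and 2.30 and 2.03 at Prokr2. For the peak bins themselves, an interval below 1 was found at 2 of 6, beside 18.5% of background bins, and above 1 at 1 of 6, beside 21.9%. Endogenous density was higher in RGM at 2 of 6, beside 38.9%, namely Pdzrn3 (1.60, 1.27 to 2.03) and Col13a1 (1.55, 1.004 to 2.29). The bins at 2 to 10 kb were higher in RGM too, at 1.32 (1.13 to 1.54) times for Pdzrn3 and 1.44 (1.23 to 1.67) times for Col13a1, within the intervals of the sites. Tagged signal exceeded endogenous signal in RGM at 3 of 6, beside 5.92%, at 1.74 (1.38 to 2.23) times for Cald1, 1.73 (1.09 to 2.94) times for Ntn4 and 1.35 (1.10 to 1.67) times for Pdzrn3. In Cas9, whose anti-FLAG signal chose the bins, it did so at 4 of 6, beside 17.5%, and was below endogenous signal at 1 of 6 (Prokr2), beside 19.9%. Cald1, Pdzrn3 and Ntn4 had the highest Cas9 anti-FLAG densities of the 6, at 8.97 to 19.0, while the background bins begin at 2. The background is thus not matched for tagged signal, and nothing particular to the 6 genes is read from these shares. Antibody, genotype and the amount of GZF1 cannot be told apart in the ratio of tagged to endogenous signal.

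A low knockout to control ratio was found at few tagged sites. With a stricter definition, a Cas9 anti-FLAG density of 3 or more and 3 or more times local background, 829 autosomal bins (0.0337%) were bound, and of 821 with 20 or more control reads 20 (2.44%) had a ratio of 0.5 or less, against 68070 of 2262708 autosomal bins (3.01%). Cald1, Ntn4 and Pdzrn3 were among the 20, while Col13a1, Prokr2 and Nfib did not meet this definition. The interval was below 1 at 71 of the 821 bins (8.65%) and above 1 at 74 (9.01%). In the order of ratios over genes whose highest bin was bound, the next below Cald1 was a bin in the window of the noncoding gene Gm34081 (0.0914, from 5 knockout and 59.4 control reads), and the next above Pdzrn3 were Gm31818 (0.460) and a bin shared by Sall4, a stem cell transcription factor gene, and Gm14261 (0.475). The ratio had a median of 0.980 over the 821 bins, with 0.589 and 1.49 as the 5th and 95th percentiles.

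**Figure D5:**
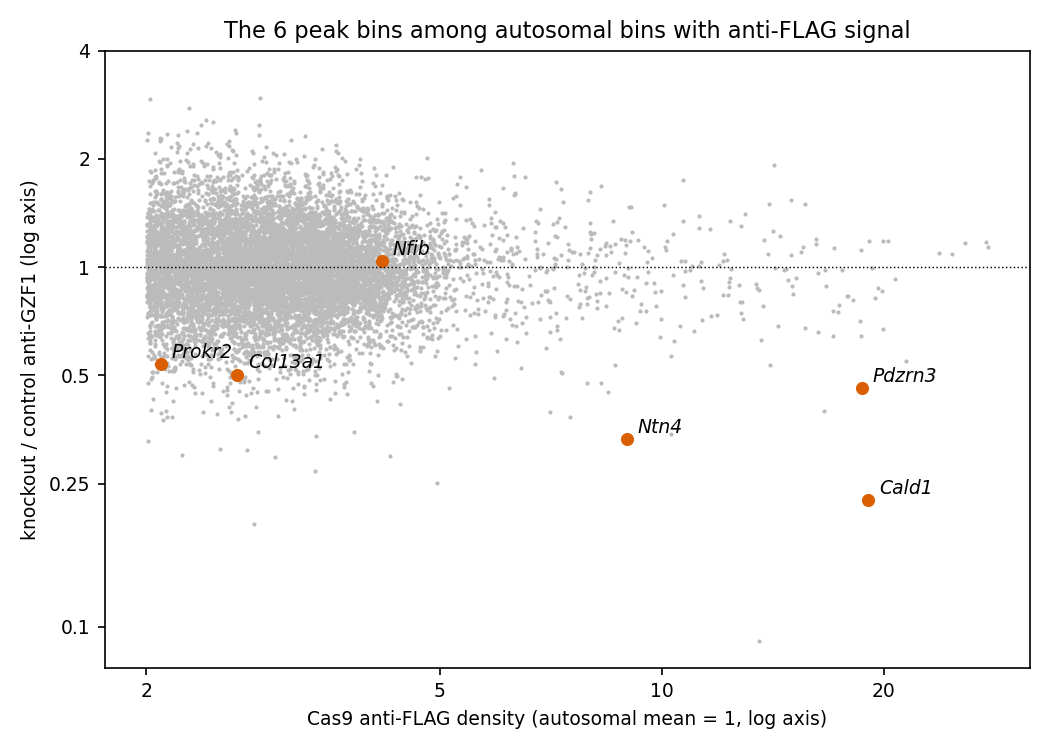
Knockout to control ratio against Cas9 anti-FLAG density (both log axes) for 9905 autosomal bins with anti-FLAG signal and 20 or more control reads in grey, with the 6 peak bins in orange. Cald1, Pdzrn3 and Ntn4 lie low among strong sites, Col13a1 and Prokr2 low among weak ones, and Nfib (1.04) in the middle of the grey points.

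Relatives of the 6 genes were read as a comparison. Of 29 genes in the calponin and tropomyosin, netrin and netrin receptor, LNX/PDZRN, transmembrane collagen, nuclear factor I and prokineticin families, 1 had a bound bin in Cas9 anti-FLAG, beside 1.73% of 47038 autosomal genes and 3.27% of those with windows of 27 to 239 bins. This was Unc5d, which encodes a netrin receptor, with densities of 3.68 in RGM and 3.27 in Cas9 and a knockout to control ratio of 1.28 (0.883 to 1.87). In RGM anti-FLAG 6 of 29 had one, beside 8.51% and 16.3% of the same sets. Windows of the relatives held 17 to 584 bins, the most at Unc5d, so the shares for 27 to 239 bins are not matched to them. At the highest Cas9 anti-FLAG bin of each relative the knockout to control ratio ran from 0.601 at Ntn1, the netrin-1 gene, to 1.64 at Nfix, a nuclear factor I gene, with a median of 0.994, beside 0.990 over all autosomal genes. The 5 genes whose highest bin was most like the median profile of the 6, by Euclidean distance over log2(density + 0.25) in 8 libraries, were Raver2 (0.993), Pomgnt1 (1.15), Srrm4 (1.17), Lpl (1.18) and Nkain3 (1.22). The 6 genes themselves lay 1.31 to 3.58 from that median, against 0.993 to 1.22 for these 5. Knockout to control ratios were 0.676 (0.424 to 1.06) at Raver2, 0.941 at Pomgnt1, 0.598 (0.408 to 0.892) at Srrm4, 1.01 at Lpl, the lipoprotein lipase gene, and 0.740 at Nkain3.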

How the data were processed

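Per the submitters' processing notes, reads were handled with cutadapt, Bowtie2 2.5.4, SAMtools and deepTools on mm10; how duplicate or multiply mapped reads were treated is not given in the sources used here, and could change counts in repeats. The table the authors deposited gives estimated counts for each 1 kb bin (expected counts), unscaled, 1 column per library. Counts were rounded only for ratio intervals. Of 12 libraries 8 were analysed, and 4 were not analysed here.

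Each library was divided by its autosomal mean. The deepest library had 94.2 M reads and the input 10.1 M, so peak bin input values of 1 to 6.75 reads carry wide intervals. Gene bodies and promoters came from RefSeq (GRCm38.p6, the mm10 assembly); 5 of 6 genes matched the promoter table, and exon structure was not used. The genes, lists, tests and alternatives were chosen with earlier results of these data known. Named were the 6 genes, relatives with a bound bin and the 5 genes of most similar profile. Also named were the 3 genes next on each side in the order of ratio over genes whose highest bin was bound. Of the 6 genes this order held Cald1, Ntn4 and Pdzrn3, and below Cald1 there was only 1 gene. Ntn1 and Nfix, the extremes among relatives, were named after their values were seen. Alternatives were other scalings, bins, backgrounds and definitions of a bound bin. The ratio step was tested on simulated data. Python 3.11.15, numpy 2.4.6, pandas 2.3.3, scipy 1.17.1 and matplotlib 3.10.9 were used.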

Additional observations from a re-analysis of the deposited data

How the results depend on the processing

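No paired analysis was possible because each group was a single library. The knockout to control ratio stayed below 1 at 5 genes under the 6 alternatives tried, and all intervals of Nfib held 1. Reads of the knockout and control chose the genes and enter every alternative, so this is a description. The bin highest in RGM anti-FLAG is the peak bin itself at those 5 genes, and median scaling multiplies all ratios by the same factor. Intervals came to hold 1 at Col13a1 over 3 kb (0.690 to 1.14) and at Prokr2 relative to its surroundings. For Prokr2 these were 0.452 to 1.23 for 1 Mb and 0.403 to 1.10 for the bins at 2 to 10 kb. The ratio moved outside its main interval over 3 kb at Cald1 (0.483) and Col13a1 (0.888). The Cas9 anti-FLAG fold over local background moved with the span of the background. With 5 kb on each side it was 6.80 at Cald1, 9.51 at Pdzrn3 and 1.98 at Col13a1, and with 50 kb it was 13.0 at Cald1, 18.1 at Pdzrn3 and 9.02 at Ntn4. In the bin highest in RGM anti-FLAG it was 1.48 at Nfib. The count of 20 bound bins with a ratio of 0.5 or less was 10 when bound meant 5 times local background and a density of 5, 13 when bound in both lines, 71 when called by an interval below 1, and 111 at 2 times local background and a density of 2, added after the data were seen. The count of 1 relative with a bound bin became 0 at 5 times local background and a density of 5. The cause of these shifts was not tested. Of 90 further fold values of the 6 genes in the other anti-FLAG and anti-GZF1 libraries 80 stayed within their own interval and 10 moved. The alternative of the bin highest in RGM anti-FLAG gave 27 of these 80 and 3 of these 10. That bin is the peak bin itself at 5 of 6 genes, so its values there could not move. Counts of 18.5 to 123 reads in the knockout and control peak bins, and 1 to 6.75 in the input, limit what the ratios can show.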
